A study of Mus musculus with 8 samples.

Results

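The genes described here are the mouse Fc gamma receptor genes Fcgr1, Fcgr2b, Fcgr3 and Fcgr4, the neonatal Fc receptor gene Fcgrt, and the inhibitory receptor genes Pirb and Sirpa. They were taken as every probe set whose gene symbol in the platform annotation was one of these names, which gave 7 genes and 14 probe sets out of 18193 genes and 34945 probe sets with a single symbol. All 7 genes and 13 of the 14 probe sets passed the filter on dim signal, which required at least 2 of the 4 animals to lie above the median over all probe sets. RNA came from the spleen cells of leukemic mice carrying the leukaemia fusion of core-binding factor beta with smooth muscle myosin heavy chain. In the full-length group (CBFb-SMMHC), the mice were leukemic 2 months after treatment with the mutagen ENU, and in the truncated group (CBFb-SMMHCd179-221) they were leukemic 3 weeks after birth. The series title gives the truncated fusion as defective in high-affinity RUNX1 binding, and no ENU is named for those mice. The sample labels call both genotypes chimera, whereas the series text calls the full-length mice knock-in. Genotype, mutagen and age therefore went together and cannot be told apart, and no spleen without a fusion was analysed here. A chimeric animal also holds cells of its host embryo, and the share of fusion-carrying cells in each spleen was not given.

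Fc gamma receptors bind the constant part of IgG. Activating receptors signal through the shared FcR gamma chain, whose tyrosine motif is read by the kinase Syk, whereas inhibitory receptors carry their own tyrosine motif and recruit the phosphatases SHP-1, encoded by Ptpn6, or SHIP1, encoded by Inpp5d. Macrophages, monocytes and neutrophils carry most of these receptors, and in the spleen they serve the clearance of antibody-coated cells. The Fcgr2b product is also the Fc gamma receptor of B cells.

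Fcgr2b, Fcgr4 and Fcgr3 lay in one stretch of chromosome 1 (RefSeq, GRCm38.p6), with Fcgr2b at chr1:170960558-170976071, Fcgr4 at chr1:171018926-171029761 and Fcgr3 at chr1:171051169-171065915, which is 105358 bases from the start of Fcgr2b to the end of Fcgr3. Sirpa was placed at chr2:129591042-129632228 and Fcgr1 at chr3:96282909-96293969. Pirb at chr7:3712505-3720382 and Fcgrt at chr7:45092993-45103822 shared chromosome 7. RefSeq promoter windows, from 250 bases before to 50 bases after an annotated start, were matched for 6 of the 7 genes. Because the fusions differ in RUNX1 binding and the receptors are myeloid genes, the windows were searched on both strands for the RUNX core TGTGGT, the PU.1 core GAGGAA and the interferon-gamma activated site TTCNNNGAA. Windows holding at least 1 match are shown 5′ to 3′ on the gene's strand, with the matched letters in capitals; no 2 matches overlapped.
Fcgr4, chr1:171018676-171018975, plus strand: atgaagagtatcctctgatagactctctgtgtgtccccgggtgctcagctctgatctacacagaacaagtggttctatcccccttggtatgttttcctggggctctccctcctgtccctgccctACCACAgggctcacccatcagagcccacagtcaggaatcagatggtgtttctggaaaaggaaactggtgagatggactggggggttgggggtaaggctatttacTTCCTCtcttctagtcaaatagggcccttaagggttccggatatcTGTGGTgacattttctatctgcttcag
Fcgr3, chr1:171059354-171059653, minus strand: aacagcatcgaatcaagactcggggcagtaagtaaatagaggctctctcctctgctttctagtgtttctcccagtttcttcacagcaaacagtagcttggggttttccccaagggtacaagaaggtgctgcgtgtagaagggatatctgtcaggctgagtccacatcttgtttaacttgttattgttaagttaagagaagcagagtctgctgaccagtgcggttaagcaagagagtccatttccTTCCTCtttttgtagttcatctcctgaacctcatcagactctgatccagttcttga
Fcgr1, chr3:96293920-96294219, minus strand: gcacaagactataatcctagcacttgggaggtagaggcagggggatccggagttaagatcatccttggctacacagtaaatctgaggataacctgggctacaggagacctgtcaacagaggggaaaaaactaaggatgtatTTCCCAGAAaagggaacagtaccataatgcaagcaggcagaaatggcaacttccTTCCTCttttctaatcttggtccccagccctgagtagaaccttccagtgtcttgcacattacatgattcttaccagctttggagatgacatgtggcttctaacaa
Pirb, chr7:3720333-3720632, minus strand: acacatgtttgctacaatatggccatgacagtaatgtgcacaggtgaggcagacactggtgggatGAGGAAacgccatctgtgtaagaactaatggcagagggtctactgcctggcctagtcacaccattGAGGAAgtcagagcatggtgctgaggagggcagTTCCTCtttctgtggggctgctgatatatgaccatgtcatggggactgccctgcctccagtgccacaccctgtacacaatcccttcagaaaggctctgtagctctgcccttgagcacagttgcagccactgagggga

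The RUNX core was found in the Fcgr4 window alone among the 6 genes, at 2 places, positions -126 and 24 counted from the start. The same letters occurred in 16.8% of the 32851 windows of this length in the table. The PU.1 core occurred once each in the windows of Fcgr4, Fcgr3 and Fcgr1 and at 3 places in that of Pirb, against 28.3% of all windows. The activated-site letters were found in the Fcgr1 window, at position -109, against 8.3% of all windows. The windows of Fcgr2b and Fcgrt held none of these letters. A second window of Fcgr3 was the same stretch shifted by a few bases. These matches describe letters in a window, and binding was not measured.

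The 4 arrays of a genotype came from 2 animals, animal 1 being measured on 1 array and animal 2 on 3. Values are RMA signals on the log2 scale, and array medians over all probe sets lay between 4.71 and 4.78. The arrays did not group by animal. In the full-length group array 1 of animal 2 correlated with the single array of animal 1 at r = 0.989 over all probe sets, arrays 2 and 3 of animal 2 correlated at 0.997, and correlations between these 2 pairs were 0.946 to 0.954. The truncated group had the same arrangement, at 0.987, 0.997 and 0.968 to 0.976. Full-length arrays 2 and 3 correlated more highly with the truncated arrays (0.961 to 0.973) than with the full-length arrays numbered 1. Results are therefore also given for the arrays numbered 1 (1 of each animal) and for the arrays numbered 2 and 3 (animal 2 alone). The labels do not say whether arrays of 1 animal were separate extractions. The series text mentions 2 independent experiments a genotype, and the replicate numbers may mark these rather than arrays of 1 animal, in which case the SDs, SEs and p-values over animals below do not measure the spread between animals. Below, array values are given in the order animal 1, then arrays 1, 2 and 3 of animal 2, and means and SDs are over the 2 animals of a genotype after averaging an animal's arrays.

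All 7 receptor genes, each read by its brightest probe set, had a higher mean in the truncated group. The differences were 0.66 to 2.24 on the log2 scale, with a median of 1.36. The 2.24 was that of Fcgr1, whose probe set was the brightest only through the truncated arrays numbered 1, and whose other probe set gave 0.32. Over all 11387 genes tested, 48.4% were higher in the truncated group and the median difference was -0.01. For 5 of the 7, Fcgr2b, Fcgr3, Fcgrt, Pirb and Sirpa, the 4 truncated arrays all lay above the 4 full-length arrays; 10.3% of all genes did so. None of the 7 passed limma's test on the animal means with Benjamini-Hochberg adjustment over all genes at 0.05, and no gene of the 11387 did (0%). At an unadjusted p under 0.05, 6 of the 7 were higher in the truncated group, against 8.82% of all genes. In whole spleen cells, fewer cells of a type and less RNA per cell cannot be told apart. The members' summed linear signal was 1120 to 1809 on the full-length arrays and 3095 to 4014 on the truncated arrays.

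**Figure D1:**
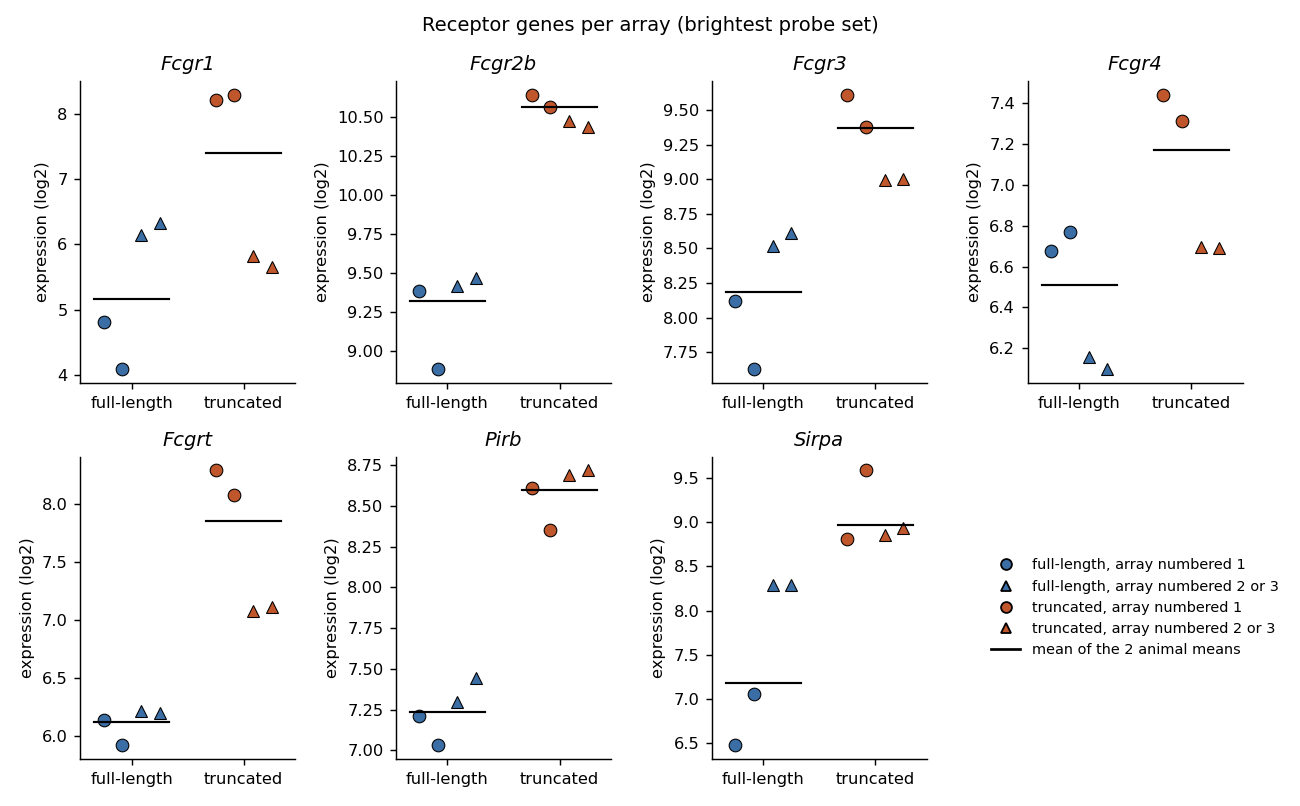
Log2 expression of the 7 receptor genes on each array, by genotype, with circles for arrays numbered 1, triangles for arrays numbered 2 or 3, and a line at the mean of the 2 animal means. The groups are apart for Fcgr2b, Fcgr3, Fcgrt, Pirb and Sirpa and overlap for Fcgr1 and Fcgr4; each panel has its own axis, so levels are not compared between genes.

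Fcgr1 encodes the high-affinity receptor for IgG2a, which signals through the FcR gamma chain and is inducible by interferon gamma. The full-length arrays read 4.80, 4.08, 6.15 and 6.33. On the truncated arrays it read 8.22, 8.29, 5.83 and 5.65. The 2 truncated arrays numbered 1 were thus far above every other array, while truncated arrays 2 and 3 lay below full-length arrays 2 and 3. The animal means were 5.16 ± 0.51 and 7.40 ± 1.15 (SD, n = 2 animals each), a difference of 2.24 ± 0.59 (SE; 95% interval 0.75 to 3.73; 4.73-fold; limma adjusted p = 0.193). The difference was 3.81 between the arrays numbered 1 and -0.50 between the arrays numbered 2 and 3, so its sign depended on the arrays. A second probe set of Fcgr1 spanned only 5.30 to 5.98 over the 8 arrays and differed by 0.32 ± 0.28 (SE, limma adjusted p = 0.705). Its full-length mean, 5.57, was above the 5.16 of the first. The first was thus the brightest over the 8 arrays only through the truncated arrays numbered 1.

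Fcgr3 encodes the low-affinity activating receptor of phagocytes and natural killer cells. Its 1 probe set read 8.12, 7.63, 8.52 and 8.61 on the full-length arrays. The truncated arrays read 9.61, 9.38, 8.99 and 9.0. The groups did not overlap, although the gap between the highest full-length and the lowest truncated array was small beside the gap between arrays numbered 1. The means were 8.19 ± 0.09 and 9.37 ± 0.34 (SD, n = 2 animals each), a difference of 1.18 ± 0.26 (SE; 95% interval 0.52 to 1.84; 2.27-fold; limma adjusted p = 0.149). Within array numbers the difference was 1.62 for arrays numbered 1 and 0.43 for arrays numbered 2 and 3.

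Fcgr4 encodes the activating receptor of intermediate affinity for IgG2a and IgG2b on monocytes, macrophages and neutrophils. The full-length arrays read 6.68, 6.77, 6.16 and 6.10. Those of the truncated group read 7.44, 7.31, 6.70 and 6.69. In both genotypes arrays 2 and 3 were the lower pair, and the lower truncated pair overlapped the higher full-length pair. The difference of the means, 6.51 ± 0.24 and 7.17 ± 0.38 (SD, n = 2 animals each), was 0.66 ± 0.29 (SE; 1.58-fold; limma adjusted p = 0.405), with a 95% interval of -0.07 to 1.39. It was 0.65 between arrays numbered 1 and 0.57 between arrays numbered 2 and 3, so it was of like size at both array numbers.

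Fcgr2b encodes the inhibitory receptor of the family, which recruits SHIP1 and raises the threshold for activation by immune complexes. Its brightest probe set read 9.39, 8.88, 9.41 and 9.47 on the full-length arrays. The truncated arrays read 10.64, 10.56, 10.47 and 10.43. Every truncated array was above every full-length array, and the 4 truncated arrays lay within a narrow range. The means were 9.32 ± 0.09 and 10.56 ± 0.11 (SD, n = 2 animals each), a difference of 1.24 ± 0.22 (SE; 95% interval 0.69 to 1.8; 2.37-fold; limma adjusted p = 0.101). The difference was 1.47 between arrays numbered 1 and 1.01 between arrays numbered 2 and 3. Another 3 Fcgr2b probe sets gave 1.05, 1.15 and 1.24, each with all truncated arrays above all full-length arrays. The remaining one was dim on every array, at 2.29 to 2.71, and was not tested.

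The activating Fcgr3 and the inhibitory Fcgr2b thus differed between genotypes by similar amounts, 1.18 and 1.24, with intervals that overlapped. Between the arrays numbered 2 and 3 the difference was 0.43 for Fcgr3 and 1.01 for Fcgr2b. Whether the 2 genes differ in this respect was not tested.

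Fcgrt encodes the heavy chain of the neonatal Fc receptor, which pairs with beta-2 microglobulin and returns internalised IgG to the cell surface. The full-length arrays read 6.14, 5.92, 6.21 and 6.19, so all 4 were close together. In the truncated group it read 8.29, 8.07, 7.08 and 7.11. All truncated arrays were higher, the arrays numbered 1 more so than arrays 2 and 3. The means were 6.12 ± 0.02 and 7.85 ± 0.61 (SD, n = 2 animals each), a difference of 1.73 ± 0.34 (SE; 95% interval 0.87 to 2.60; 3.32-fold; limma adjusted p = 0.120). By array number the difference was 2.15 and 0.89.

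Pirb encodes a paired immunoglobulin-like receptor that binds MHC class I and recruits SHP-1 on myeloid and B cells. Its own probe set read 7.21, 7.03, 7.30 and 7.45 on the full-length arrays. The truncated arrays read 8.61, 8.35, 8.69 and 8.72. The groups were well apart, and within each genotype arrays 2 and 3 were slightly above the arrays numbered 1. The means were 7.23 ± 0.04 and 8.60 ± 0.02 (SD, n = 2 animals each), a difference of 1.36 ± 0.21 (SE; 95% interval 0.83 to 1.90; 2.58-fold; limma adjusted p = 0.0831), the lowest adjusted p of the 7. The difference was 1.36 between arrays numbered 1 and 1.33 between arrays numbered 2 and 3.

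Pirb has close relatives, the activating Pira genes, and 3 further probe sets are annotated to Pirb together with Pira genes, so their signal cannot be assigned to 1 gene. These were outside the 14 probe sets. One of them differed by 1.86 (2.03 and 1.49 by array number) and another by 1.61 (1.79 and 1.04). The last differed by 1.90 in the means, but by 2.87 between arrays numbered 1 and 0.17 between arrays numbered 2 and 3.

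Sirpa encodes the receptor for CD47, through which SHP-1 and SHP-2 are recruited and phagocytosis is restrained. The brightest probe set read 6.48, 7.05, 8.30 and 8.29 on the full-length arrays. On the truncated arrays it read 8.81, 9.59, 8.86 and 8.93. The groups did not overlap, but full-length arrays 2 and 3 were close to the truncated arrays. The means were 7.18 ± 0.99 and 8.97 ± 0.22 (SD, n = 2 animals each), a difference of 1.79 ± 0.49 (SE; 95% interval 0.54 to 3.04; 3.46-fold; limma adjusted p = 0.212). It was 2.43 between arrays numbered 1 and 0.60 between arrays numbered 2 and 3. The other 2 Sirpa probe sets gave 1.46 and 1.68 in the means, with overlapping groups. For these the arrays numbered 2 and 3 differed by only -0.02 and -0.06, against 2.23 and 2.62 between the arrays numbered 1.

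Among the 13 probe sets that passed the filter, all had a higher mean in the truncated group and 8 had groups that did not overlap, against 8.79% of all 19873 probe sets tested. None passed the adjusted threshold (0% of all probe sets), and 11 had an unadjusted p under 0.05 in the higher direction, against 7.42% of all. At the arrays numbered 1 and at those numbered 2 and 3 alike, 9 of the 13 were higher in the truncated group. Over genes, 6 of the 7 were higher at both, the exception being Fcgr1, against 27.5% of all genes. The median difference of the 7 genes was 1.62 between arrays numbered 1 and 0.60 between arrays numbered 2 and 3. Over all genes these medians were 0.0029 and -0.02.

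**Figure D2:**
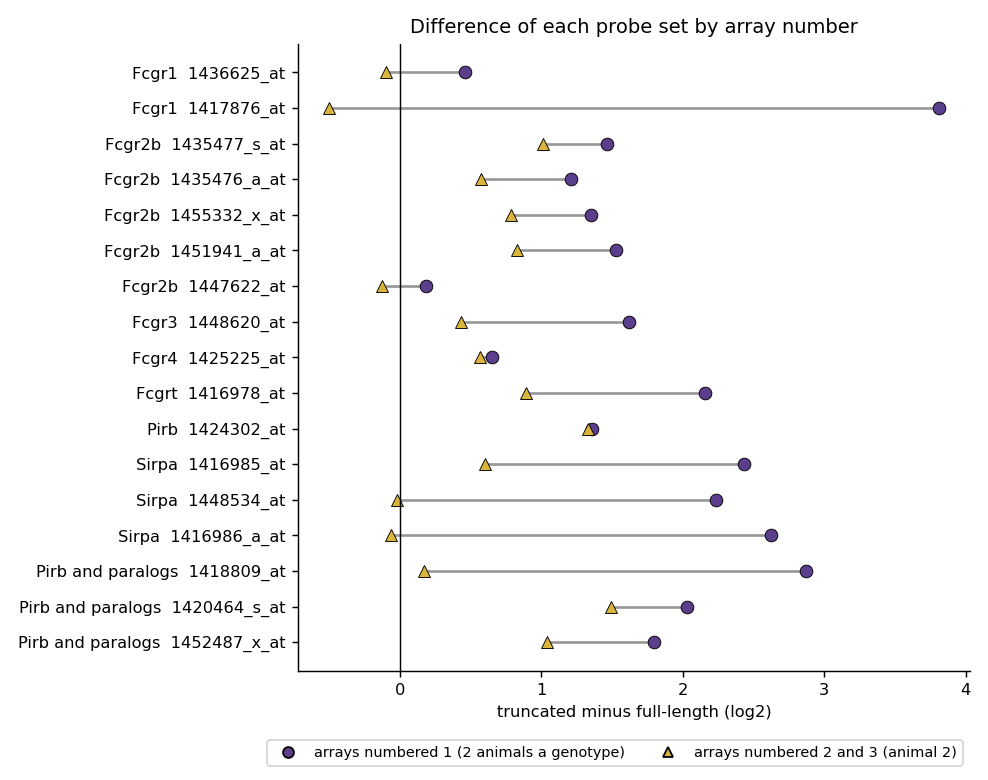
Truncated minus full-length difference in log2 signal for each probe set, with circles for arrays numbered 1 (2 animals a genotype) and triangles for arrays numbered 2 and 3 (animal 2). The pairs nearly coincide for Fcgr4 and Pirb and are widest for Fcgr1 (3.81 and -0.50); 3 probe sets shared by Pirb and its relatives are at the bottom.

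The way the 7 genes varied within a genotype also differed. From arrays numbered 1 to arrays numbered 2 and 3, the mean of the brightest Fcgr1 probe set went from 4.44 to 6.24 in the full-length group and from 8.26 to 5.74 in the truncated group, which is in opposite directions. Sirpa likewise went from 6.77 to 8.29 and from 9.20 to 8.89. Fcgr4 was lower at arrays 2 and 3 in both genotypes, by 0.60 and 0.68. Pirb was higher at arrays 2 and 3 in both, by 0.25 and 0.22. Fcgrt was nearly level in the full-length group (6.03 and 6.2) and lower at arrays 2 and 3 in the truncated group (8.18 and 7.09).

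By the rule applied here, animal and array number together paired each full-length array with 1 truncated array, although these came from different mice. A limma fit of the 8 arrays with these pairs as blocks called 4 of the 7 genes, against 8.31% of all genes. These were Pirb (adjusted p = 0.00709), Fcgr2b (0.0169), Fcgr4 (0.0298) and Fcgrt (0.0429), whereas Fcgr3, Sirpa and Fcgr1 were at 0.0925, 0.0928 and 0.338. That fit treats arrays as units although 3 of the 4 in a genotype are from 1 animal. A fit of array 1 of each animal, which has 1 array an animal, called all 7, with 26.7% of all genes called. Leaving out single arrays also changed the calls. Without array 3 of full-length animal 2, Pirb (adjusted p = 0.0277), Fcgr2b (0.0404) and Fcgrt (0.0479) passed, with 3.76% of all genes called. Without its array 2, Pirb (0.0353) and Fcgr2b (0.0464) passed, with 2.92% of all genes called. Without full-length animal 2 as a whole, Sirpa alone of the 7 passed (0.0201), with 5.59% of all genes called. The size of the difference also depended on single arrays. Without the array of full-length animal 1 that of Sirpa was 1.09 in place of 1.79. Without the array of truncated animal 1 that of Fcgr1 was 1.43 in place of 2.24, and that of Fcgr4 was 0.39 in place of 0.66. The same fit gave differences of 1.30 in place of 1.73 for Fcgrt and 0.94 in place of 1.18 for Fcgr3. With arrays numbered 1 and arrays numbered 2 and 3 taken as the 2 units of a genotype, a choice made after seeing the data, all 7 had a higher mean in the truncated group and adjusted p ranged from 0.496 to 0.837.

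The direct partners of these receptors were read on the same arrays. Fcer1g, the FcR gamma chain on which Fcgr1, Fcgr3 and Fcgr4 depend, read 8.11, 7.71, 9.0 and 9.05 on the full-length arrays. In the truncated group it read 10.16, 10.06, 10.02 and 10.02. All truncated arrays were above all full-length arrays, by 1.74 ± 0.26 in the means (SE, limma adjusted p = 0.0820), by 2.20 between arrays numbered 1 and by 0.99 between arrays numbered 2 and 3. Ptpn6, encoding the SHP-1 phosphatase used by Pirb and Sirpa, was higher by 1.26 ± 0.33 (SE, limma adjusted p = 0.193), with 1.81 and 0.42 by array number and no overlap between groups. Inpp5d, encoding the SHIP1 used by Fcgr2b, read 10.42 to 10.43 on the truncated arrays and ranged from 9.74 to 10.59 on the full-length arrays. Its difference was 0.38 ± 0.26 (SE, limma adjusted p = 0.621), with 0.65 and -0.14 by array number, so the groups overlapped. B2m, encoding the light chain of the Fcgrt receptor, differed by 0.34 ± 0.40 (SE, limma adjusted p = 0.803), and its groups overlapped. Cd47, the ligand of the Sirpa receptor, was lower by the brightest probe set, with a difference of -0.36 ± 0.23 (SE, limma adjusted p = 0.594). Another 2 Cd47 probe sets that passed the filter gave 0.25 and 0.08, so its direction depended on the probe set.

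**Figure D3:**
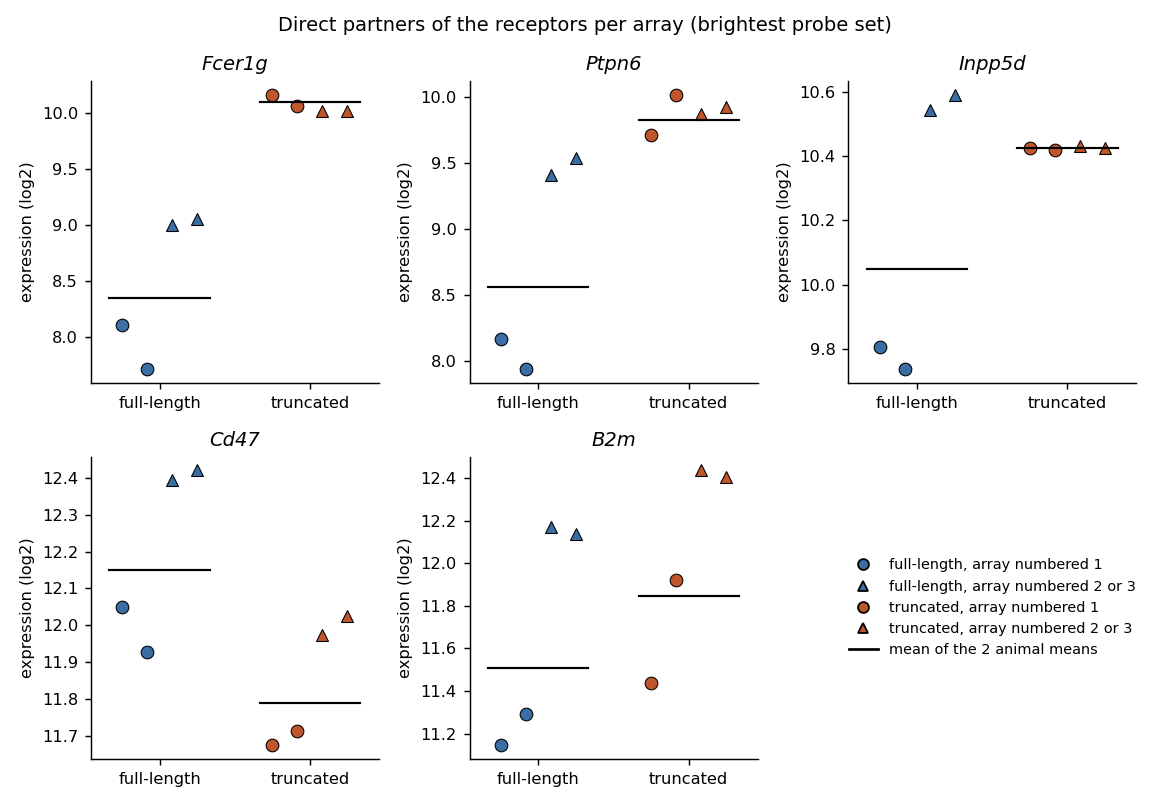
Log2 expression of 5 direct partners of the receptors on each array, by genotype, with circles for arrays numbered 1, triangles for arrays numbered 2 or 3, and a line at the mean of the 2 animal means. Fcer1g and Ptpn6 have all truncated arrays above all full-length arrays, and the groups overlap for Inpp5d, Cd47 and B2m.

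The rest of the pathway was read from fixed lists, in which no gene passed the adjusted threshold. Of 10 measured ligands and partner chains, 8 had a higher and 2 a lower mean in the truncated group, with a median difference of 0.37. Tyrobp, encoding the DAP12 adaptor of paired activating receptors, was higher by 1.81. Ighg3, an immunoglobulin heavy chain constant region, was listed at 1.79 because truncated arrays 2 and 3 read 11.34 and 11.15 while every other array read 5.50 to 5.89. Of 20 kinases and adaptors on the activating side, 15 were higher and 5 lower, with a median of 0.61. The largest were Plcg2, a phospholipase (2.40), Vav3 (1.63), Fgr, a Src family kinase (1.49), and Syk (1.33). Vav3 read 4.12 to 5.01 on the full-length arrays and, by animal means, passed the filter only through the truncated animals. For this list the median was 1.01 between arrays numbered 1 and 0.06 between arrays numbered 2 and 3. Of 13 phosphatases and adaptors on the inhibitory side, 9 were higher and 4 lower, and the median of 0.23 split into 0.63 and -0.21 by array number. Dok3 (1.22) and Skap2 (0.95) followed Ptpn6 as the largest in that list.

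Other inhibitory receptors lay nearer to the 7 genes. Of 18 that passed the filter, from 21 on the array, 17 had a higher mean in the truncated group and 9 had groups that did not overlap, with a median of 1.21 (1.43 and 0.60 by array number). Clec4a2, a lectin with an inhibitory motif, was higher by 2.21, with 2.24 and 2.37 by array number. Milr1, an inhibitory receptor first known from mast cells, was higher by 2.40, and Vsir, encoding VISTA, by 1.83. Siglecf, a marker of eosinophils, differed by 3.03 in the means but by 5.81 and -2.38 by array number. Its opposite signs at the 2 array numbers were like those of Fcgr1, which differed by 3.81 and -0.50. Among 13 other Fc and paired activating receptors, 11 were higher and the median was 0.88. Clec5a, a DAP12-coupled lectin, was higher by 2.87, Cd300lb by 1.63, Trem1 by 1.28 and Trem2 by 1.22. By array number Clec5a split into 3.92 and 0.56, and Trem2 into 1.93 and -0.19 with overlapping groups. Cd300lb (1.92 and 1.15) and Trem1 (1.54 and 0.81) were higher at both. Fcer1a, named here after its values were seen, encodes the IgE-binding chain of mast cells and basophils and read 12.39 and 12.47 on full-length arrays 2 and 3 against 5.29 and 5.21 on the arrays numbered 1. On the truncated arrays it read 9.48, 9.78, 7.29 and 7.24. Of 22 phagocytosis genes, 20 were higher, with a median of 0.49. Among these, C5ar1 read 4.27 to 4.45 on the full-length arrays. By animal means it passed the filter only through the truncated animals, so it could only be higher. Axl (2.43), Myo1f (2.22), Itgam (1.83) and Mertk (1.23) led that list.

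Markers of the cell types that carry these receptors differed between the groups as well. Of 13 macrophage markers that passed the filter, from 16 on the array, 12 had a higher mean in the truncated group, and their summed linear signal was 1383 to 1990 on the full-length and 4035 to 5840 on the truncated arrays. The median difference was 1.49 (1.87 and 0.89 by array number). Vcam1 (3.74), Mrc1 (2.87), C1qa (2.10) and Adgre1 (1.83) were the largest. Vsig4, Cd163 and Timd4 did not pass the filter. Vsig4 went the other way (-1.05), at 5.97 and 5.69 on the full-length arrays numbered 1 and 3.54 to 4.49 on the truncated arrays. Cd163 read 6.12 and 6.29 on truncated arrays 2 and 3 and at most 5.26 on the others. All 7 monocyte markers had a higher mean, with sums of 855 to 1770 against 4268 to 4950, led by Fcnb (2.51) and F13a1 (2.36). Their median difference was 1.56 (1.58 and 2.02 by array number). For 6 of the 7 the groups did not overlap, the exception being Cx3cr1, which was level (0.0029). All 10 neutrophil markers were higher without overlap, with a median of 2.80 (3.29 and 1.61 by array number). They summed to 2845 and 2982 on the full-length arrays numbered 1 and to 12814 and 12971 on full-length arrays 2 and 3. On the truncated arrays their sum was 34379 to 39122. Ltf (4.20) and Camp (4.09), encoding secondary granule proteins, had the largest differences of the 10. The part of these markers in the difference of the receptor genes was not tested.

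Other cell type markers also differed between arrays of 1 genotype, and some differed between genotypes too. B cell markers summed to 351 to 1451 on the full-length arrays, and to 507 and 419 on the truncated arrays numbered 1 against 9277 and 9544 on truncated arrays 2 and 3. Ighm carried most of that sum, at 13.11 and 13.15 there. Without it the other 5 summed to 161 to 195 on the full-length arrays and 289 to 461 on the truncated arrays. For Cd79b (1.34), Bank1 (1.25) and Blnk (1.23) the groups did not overlap. Blnk read 3.87 to 4.13 on the full-length arrays and passed the filter only through the truncated animals, so its direction was fixed by the filter. Ms4a1, Pax5, Fcer2a and Cr2 did not pass the filter, but Ms4a1 read 6.41 and 6.31 on truncated arrays 2 and 3 and 3.53 to 4.96 on the others. On those truncated arrays Fcgr2b read 10.47 and 10.43, slightly below the arrays numbered 1. Of 7 natural killer markers 2 passed the filter, with sums of 52 to 350 against 64 to 290 (Gzma 0.53, Nkg7 0.30). Mast cell and basophil markers summed to 4865 to 16442 against 8256 to 9026, with 3 of 9 higher. The protease Cpa3 differed by 3.29 in the means, with overlapping groups, and by 4.79 and 0.28 by array number. The protease Tpsab1 (-2.35) and Hdc (-1.04) were lower on every truncated array. Erythroid markers summed to 18428 and 18523 on the full-length arrays numbered 1 and to 3754 and 3954 on full-length arrays 2 and 3. On the truncated arrays they summed to 3347 to 8118, and 7 of 8 had a lower mean there, with Trim10 (-2.14) and Ank1 (-1.40) the farthest. Trim10 was lower on every truncated array. Without both full-length arrays numbered 1, but with all truncated arrays kept, the 7 genes all had a higher mean in the truncated group. Sirpa then differed by 0.68, Fcgr1 by 1.16 and Fcgr4 by 1.04, with 1 full-length animal left. Between arrays numbered 2 and 3 of both groups, Sirpa differed by 0.60, Fcgr1 by -0.50 and Fcgr4 by 0.57. Of 4 dendritic cell markers 3 were higher and of 4 endothelial markers 1 was, with medians of 0.17 (Flt3 0.79, Siglech 0.23) and -0.12 (Stab2 0.43, Egfl7 -0.20). The full-length mean of Stab2, 4.70, lay below every array median. It passed the filter through the truncated animals, so its direction was fixed by the filter. What these markers contributed was not tested.

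**Figure D4:**
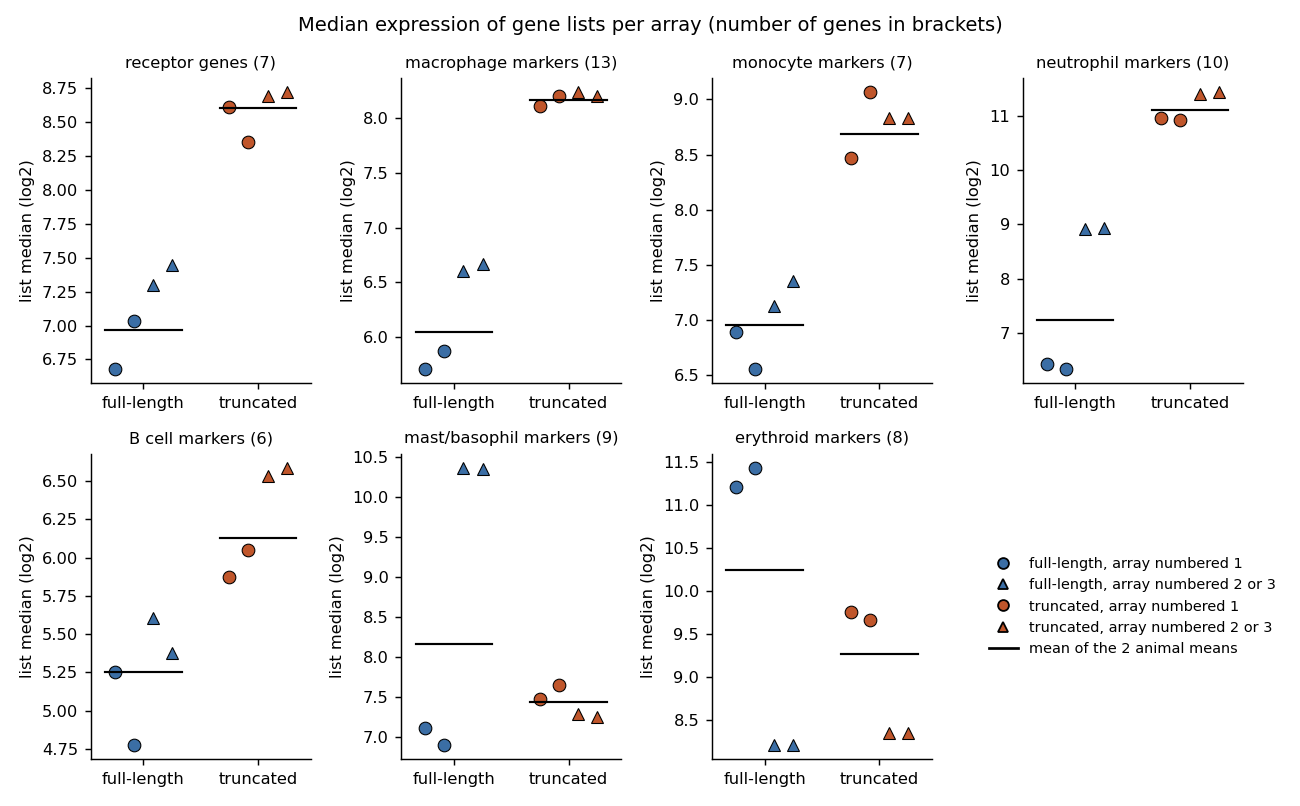
Median log2 expression on each array of the receptor genes and of 6 lists of cell type markers, by genotype, with circles for arrays numbered 1, triangles for arrays numbered 2 or 3, and a line at the mean of the 2 animal means. Macrophage, monocyte, neutrophil and B cell medians are apart between the genotypes, as the receptor median is. Mast and erythroid medians instead differ more between array numbers within the full-length group.

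Genes whose pattern over the 8 arrays was most like that of a member were found as the smallest root mean square difference between log2 values centred on each gene's own mean, among 11386 other genes. Genotype and array number are shared by all of these points, so likeness here is a description. The nearest gene to Fcgr1 was Ccl24, a chemokine for eosinophils (0.265), followed by Mcpt8, a basophil protease (0.277), and Chil1 (0.293). Fcgr3 had Rasa3, a GTPase-activating protein (0.0617), Tnfaip8l2 (0.0733) and Sptan1 (0.104). Fcgr4 was followed by Smpdl3b (0.0936), Trappc2l (0.119) and Id1 (0.120). Fcgr2b was nearest to Bcl6, a transcriptional repressor (0.0727), then Grn, encoding progranulin (0.0780), and Kyat3 (0.129). For Fcgrt the nearest was Csf1r, the receptor of the macrophage growth factor (0.145), then Fpr2 (0.146) and Clec4a3 (0.152). Pirb had Fgd2, an exchange factor for Cdc42 (0.0555), Serpinb1a (0.114) and Tns3 (0.146). Sirpa had Stap1 (0.131), Ctbp2 (0.185) and Ltbr (0.193). Within the 7, the closest pair was Fcgr2b and Pirb (0.173), with 12 genes closer to Fcgr2b than Pirb was. Fcgr2b and Fcgr3, neighbours on chromosome 1, were next (0.216), with 35 genes closer to Fcgr2b than Fcgr3 was. Fcgr4, which lies between them, was farther from both, at 0.510 from Fcgr2b and 0.529 from Fcgr3. The widest pair was Fcgr1 and Fcgr4 (1.21).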

How the data were processed

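The 8 arrays are Affymetrix mouse expression arrays of total RNA from spleen cells. The deposited values are on a log2 scale and were made by the authors with RMA, per the submitters' processing notes, with no version given; that the base is 2 follows from their range of about 2 to 14. RMA equalises the distribution of all arrays, so a shift shared by all genes cannot be seen, and the table holds no detection calls. Of 45101 probe sets, 64 were controls, 34945 had 1 gene symbol in the platform annotation, 932 had several and 9160 had none listed; only the 34945 were tested. Arrays were averaged per animal, a gene was read by its brightest probe set, genes with fewer than 2 of 4 animals above the median over all probe sets were left out, and the genotypes were compared in limma (3.58.1, lmFit followed by eBayes; R version 4.3.3) under Benjamini-Hochberg adjustment over all genes at 0.05. A gene above the median in the animals of 1 genotype alone also passed the filter, and could then only be higher in that genotype. The fit was tested on simulated data drawn with independent animals. That simulation left out the grouping by array number, so it says nothing on error rates under such grouping. With 2 animals a genotype the number of animals limits the precision. The p-values set a difference against the spread between animals as labelled, although the arrays did not group by animal.

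The text names each member, 5 direct partners, the 2 to 4 genes with the largest difference in a list, and for each member the 3 genes nearest in pattern. The members and the 15 lists were chosen with earlier results of these data known. Sequences and gene positions are RefSeq's, GRCm38.p6. As a check of pairing, deviations from the genotype means were correlated between arrays of the same animal and array number in both genotypes; the 4 correlations were 0.256, 0.114, 0.196 and 0.176, all above 0.1, so the labels' numbers were taken to pair the arrays. Unmatched arrays 2 and 3 correlated as highly across genotypes (0.200 and 0.181), as did the array of full-length animal 1 with array 1 of truncated animal 2 (0.114), so the check separates arrays numbered 1 from arrays 2 and 3 and not each single number. The alternatives tried were the choice of probe set, the filter, the unit of replication and the block of animal and array number. Median centring, the eBayes prior, and leaving out arrays or animals were tried as well.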

Additional observations from a re-analysis of the deposited data

Results flagged for a closer look

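In 28 groups of 4 arrays (14 probe sets in each of 2 genotypes), 2 had 1 array far from the other 3, measured as its gap to the nearest array over the whole range; chance gives about 1 group in 20. For the brightest Sirpa probe set the truncated array 1 of animal 2 read 9.59 against 8.81 to 8.93 on the other truncated arrays, a gap of 0.847 of the range. For the brightest Fcgr2b probe set the full-length array 1 of animal 2 read 8.88 against 9.39 to 9.47, a gap of 0.859 of the range. Both gaps widen the difference between genotypes at the arrays numbered 1.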

How the results depend on the processing

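In all 22 fits, the one reported included, each of the 7 receptor genes that was tested had a higher mean in the truncated group, within 1.23 to 1.42 for Pirb and 0.95 to 1.47 for Fcgr2b. The ranges with the arrays numbered 2 and 3 taken alone included were wider for Sirpa (0.60 to 2.49), Fcgr4 (0.39 to 1.04), Fcgr3 (0.43 to 1.62), Fcgrt (0.89 to 2.17) and Fcgr1 (-0.50 to 3.81). Fcgr1 was reversed, at -0.50, in those arrays alone, which allow no test, and was 1.28 by the mean of its probe sets. Against 0 genes, 0 receptor genes and 0 probe sets called in the reported fit, the 8 arrays with the animal as a random block gave 345, 2 (Fcgr2b and Pirb) and 425. Array 1 of each animal gave 3057, 7 and 4598. The paired fit with blocks of animal and array number gave 946, 4 and 1580. Requiring all 4 animals above the median called 1 gene. Leaving out 1 array or animal gave 0 to 624 genes, 0 to 3 receptor genes and 0 to 876 probe sets: 333 genes without array 2 of full-length animal 2, 429 without its array 3, 624 without that animal, and 2 without array 2 or array 3 of truncated animal 2. Other choices of probe set, no filter, median centring and the eBayes prior each called 0 genes. An animal left alone in its genotype is assumed to vary like those of the other. The cause of these changes was not tested.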
